A study of Mus musculus with 6 samples.

Results

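The 26S proteasome, the protease that takes apart proteins marked with ubiquitin, is described here through the transcripts of its constitutive subunits and of the chaperones that carry subunit names. Genes were taken by symbol: Psma, Psmb, Psmc or Psmd followed by a number, without the inducible immunoproteasome subunits Psmb8, Psmb9 and Psmb10. This gave 36 of the 50763 genes in the table, 16 of the 20S core (Psma and Psmb) and 20 of the 19S cap (Psmc and Psmd). Enough reads for a test were present for 34 of them, all but Psma8 and Psmb11, among 16730 genes tested.

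RNA was sequenced from mouse embryonic fibroblasts, primary mesenchymal cells of the embryo body, taken on day E13.5 and grown for a short time in culture. One genotype was wild type (WT). The other was K68R, a knock-in made with CRISPR in which lysine is replaced by arginine in SOD2, the manganese superoxide dismutase of mitochondria, so that this residue cannot be acetylated. Both genotypes are labelled C57BL/6J, with 3 libraries each, and neither carries a transgene or a treatment in the labels. Zygosity of the knock-in, and whether it comes from 1 founder or several, are not stated in them.

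In the proteasome, outer rings of alpha subunits enclose inner rings of beta subunits, and the cutting sites face the inner chamber of the barrel. The 19S cap sits on the alpha ring: its base holds a ring of ATPases that unfolds the substrate and feeds it in, and its lid holds the enzyme that removes ubiquitin. Cells build the complex from near equal numbers of its subunits, and the transcription factor NFE2L1 is known to raise most subunit genes together when proteasome activity falls.

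Library totals ran from 26200088 to 40691447 read pairs, so that 3 counts correspond to between 0.0728 and 0.116 CPM, which are counts divided by the scaled total of their library and set to one scale. Sod2 itself was at 47.2 ± 1.62 CPM in K68R against 70.0 ± 1.58 CPM in WT (SD, n = 3). Its log2 fold change was -0.57 with TMM scaling and -0.19 with offsets for exonic length and GC content, both described below. All 10 fibroblast markers were detected and summed to 11050 to 11167 CPM in K68R against 8125 to 8272 CPM in WT, with members going both ways. Of these 4 were higher in K68R, Col1a1 most (2445 ± 13.7 against 165 ± 1.31 CPM), 5 were lower, Pdgfra most (65.3 ± 1.44 against 363 ± 3.50 CPM), and Vim was not called (edgeR). For this and the marker counts that follow, 40.8% of all genes tested were called higher and 40.5% lower (81.4% in all). All 4 skeletal muscle markers were higher in K68R (sum 88.0 to 92.9 against 6.40 to 6.83 CPM), all 4 adipocyte markers lower (3.76 to 4.89 against 71.3 to 79.3 CPM) and all 4 epithelial markers lower (18.3 to 20.03 against 36.1 to 37.02 CPM). Of 6 macrophage markers 1 was higher, 3 lower and 2 not called (119 to 127 against 141 to 143 CPM). Of the 4 endothelial markers only Kdr was called, higher in K68R, and it makes up most of their sum (93.8 to 95.8 against 23.9 to 26.1 CPM), while Pecam1, Cdh5 and Tek were not called. Of the 4 neural markers Tubb3 and Sox10 were higher, Sox2 was lower and Elavl3 was not tested (40.2 to 42.9 against 24.3 to 25.9 CPM). Of the 4 erythroid markers only Alas2 could be tested, and it was not called (0.288 to 0.389 against 0.686 to 0.991 CPM in sum). Plin1, Hba-a1 and Hbb-bt were at 0 in every K68R library and Elavl3 in every WT library. These calls are with TMM scaling. With offsets Pdgfrb (-1.34) and Csf1r (-0.30) were lower, and Sox10 was not called. Vim (0.49), Ptprc (0.36), Lyz2 (0.32) and Cd68 (0.29) were then higher. The other tested markers kept their calls. The part of these cell types in the proteasome values was not tested. With bulk RNA, fewer cells of a type and less RNA per cell cannot be told apart.

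Proteasome transcripts made up a smaller share of all counts in K68R than in WT. The share was 0.511%, 0.511% and 0.5002% in the K68R libraries and 0.716%, 0.710% and 0.705% in the WT libraries. With TMM scaling, which sets libraries level on the bulk of their genes, 31 of the 34 tested members were lower in K68R, 2 were higher (Psmd3 and Psmd8) and 1 was not called (Psmd11), while offsets for exonic length and GC content changed this to 19 lower, 8 higher and 7 not called. Calls were made by edgeR's quasi-likelihood test over all genes, with Benjamini-Hochberg adjusted p under 0.05. The background of such calls was high: 81.4% of all genes tested were called, 40.8% higher and 40.5% lower. The median log2 fold change of the members was -0.54, or 1.46-fold lower, against -0.01 over all genes tested. Individual members ran from -0.79 to 0.44, and none reached 2-fold, as 7.57% of all genes tested did in the same direction. Against a bound of 1.5-fold, 8 of the 34 members were lower and none higher, with 14.9% and 26.1% of all genes (41% in all).

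In 31 members all K68R libraries were below all WT libraries, which held for 41% of all genes tested (82.3% did not overlap in either direction, 41.3% with K68R above). In Psmd3 and Psmd8 all K68R libraries were above all WT libraries, and in Psmd11 the genotypes overlapped. The spread within a genotype was small: across the tested genes the biological coefficient of variation was 2.19%.

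**Figure D1:**
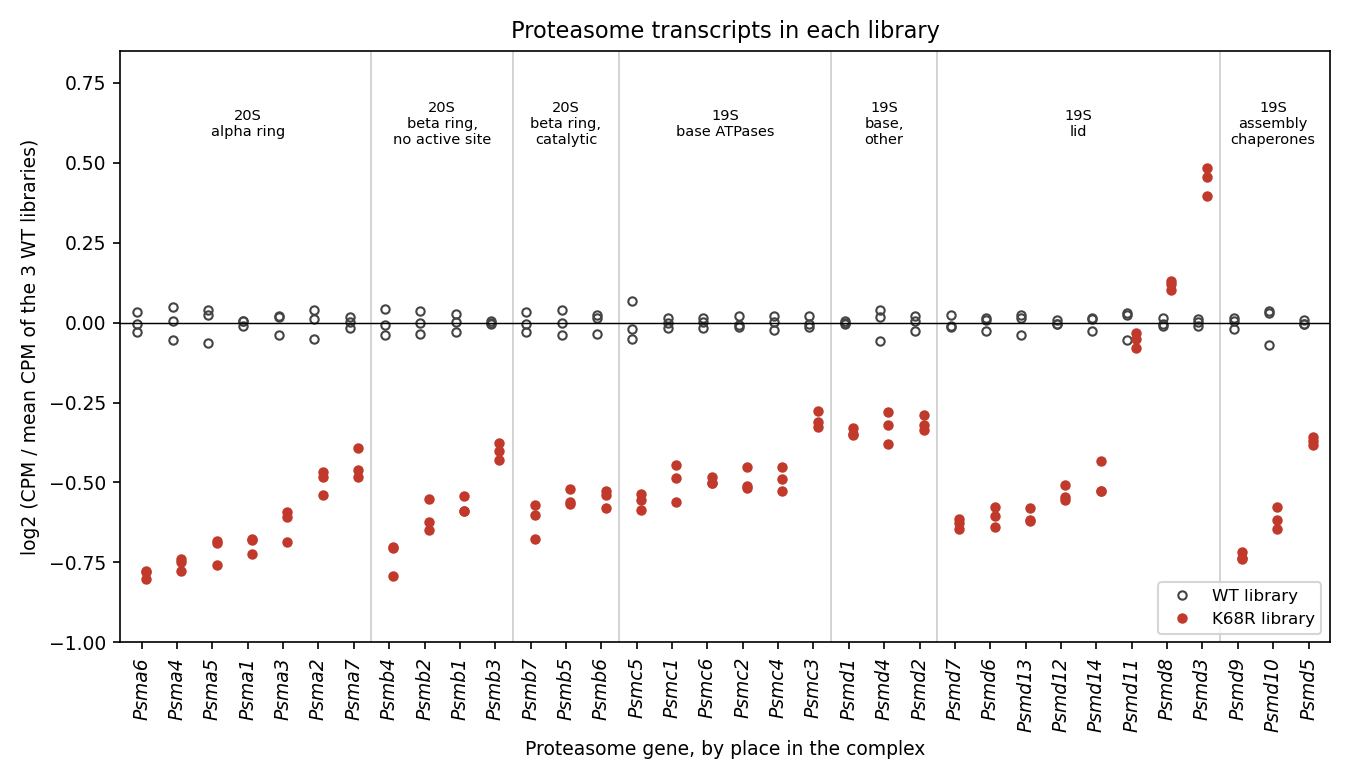
Each point is 1 library, plotted as the log2 of its CPM over the mean CPM of the 3 WT libraries, for the 34 tested proteasome genes ordered by place in the complex. With this TMM scaling the filled K68R points lie below the open WT points in 31 genes, overlap them in Psmd11 and lie above them in Psmd8 and Psmd3; with length and GC offsets 8 genes were higher in K68R.

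The members are short genes, and short genes as a class were lower in K68R. Median exonic length was 1479 bases for the tested members and 3519 bases for all genes tested, while median GC content was 49.4% and 49.7%. Among the 5736 tested genes within the members' range of length (731 to 3417 bases) and GC content (36.97% to 57.4%), 79.6% were called, 3249 (56.6%) lower and 1318 (23%) higher, with a median log2 fold change of -0.33. Across all tested genes the log2 fold change rose with log2 length (Pearson r = 0.32, Spearman rho = 0.37, n = 16730 genes) and with GC content (0.36 and 0.36, n = 15687 genes). Across the 34 members it was related to length by r = 0.35 and rho = 0.40, and to GC content by 0.21 and 0.24. Genes share the same 6 libraries and are not independent replicates, so these values are a description. The RNA was labelled only as having an RNA integrity number above 4, values per library were not used here, and the part of RNA quality in the relation with length was not tested.

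When a smooth trend with length and GC was taken out of each library, the members' median log2 fold change was -0.07. Of the 34 members 19 were then lower and 8 higher, against 39.3% lower and 36.2% higher (75.5% in all) of the 15687 genes in that fit. The 20S core had 8 lower, 2 higher and 4 not called (median -0.09), and the 19S cap 11 lower, 6 higher and 3 not called (median -0.06). Among only the 3976 genes under 4000 bases and under 50% GC, refitted on their own, 16 of 20 members were lower and 3 higher (median -0.12), against 34.4% and 33.9% of those genes (68.3% in all).

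**Figure D2:**
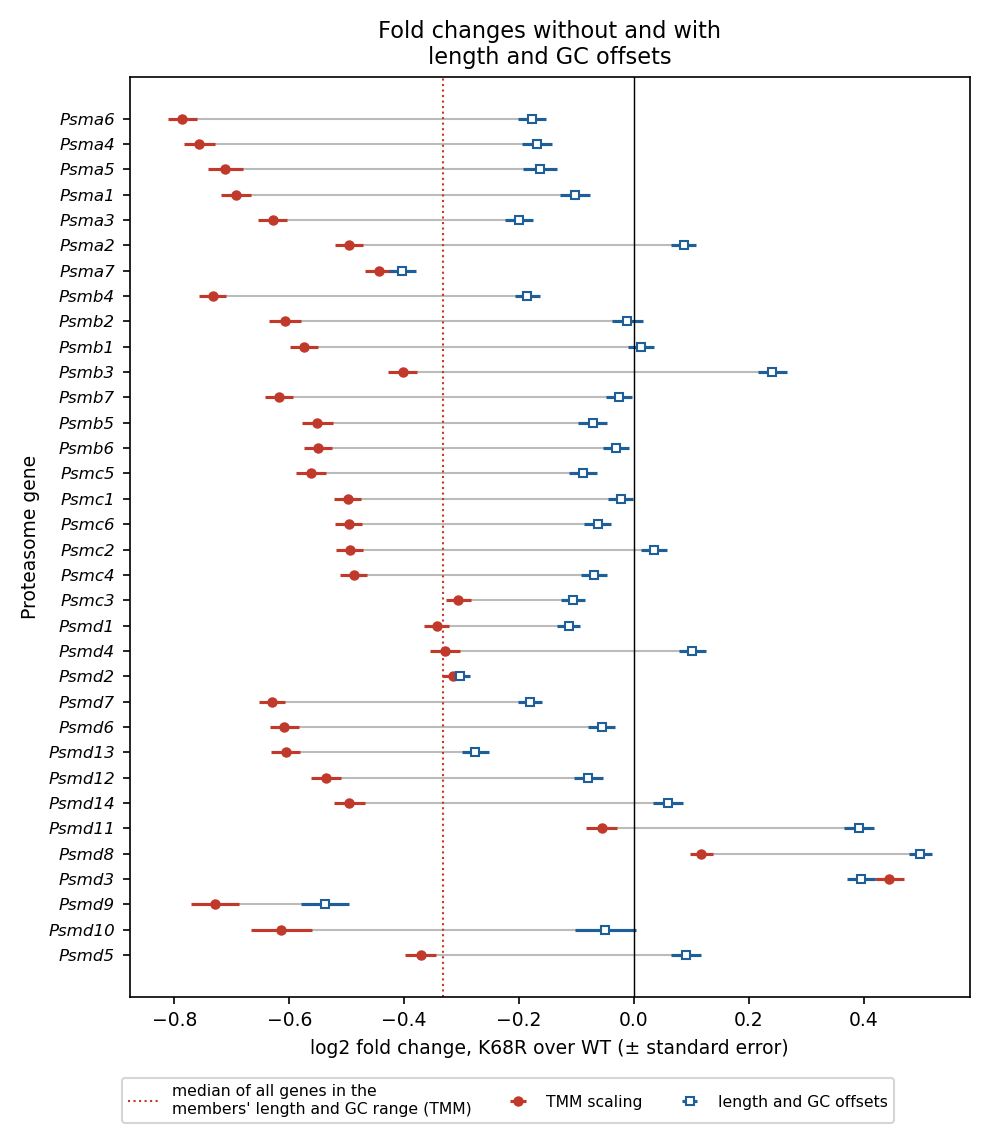
Log2 fold change of K68R over WT for the 34 tested members, with its standard error, under TMM scaling (filled) and with length and GC offsets (open); the dotted line is the median of all genes in the members' range of length and GC content under TMM scaling (-0.33). Offsets moved most members toward 0, from a median of -0.54 to -0.07, and left Psmd3 (0.40), Psmd8 (0.50) and Psmd11 (0.39) as the 3 highest.

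Promoter sequence was read because with TMM scaling most members moved in one direction while 3 genes of the lid did not. RefSeq windows of the 250 bases before a gene's start, build GRCm38.p6, were found for 29 of the 36 members; those not found were Psma8, Psmb1, Psmb2, Psmb7, Psmc3, Psmd3 and Psmd7. The letters TGACNNNGC, the core of the element that NFE2L1 and NFE2L2 bind, were searched on both strands. They were present in 5 of the 29 members (17.2%), Psmb5, Psmb6, Psmc6, Psmd12 and Psmd9, and in 11.5% of 27025 genes with a window. The CCAAT letters, read on both strands, were in 12 members (41.4%) and in 37.5% of all genes, and TATAAA in 3 members (10.3%) and in 14.3%. Psma6, Psma4 and Psmb4, which had the largest falls with TMM scaling, held no match to TGACNNNGC. Of the 3 lid genes, Psmd3, the member that rose most with TMM scaling, had no window, and Psmd8 and Psmd11 held no match. Whether a match goes with the direction of change was not tested. These matches describe the letters in the window and no more.

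The windows below show Psmb5, the chymotrypsin-like subunit, and Psmd9, the lowest member of the cap, which hold a match, and Psmd8, which was higher in K68R and holds none. Each is read 5′ to 3′ on the strand of the gene and ends at the base before the start, with the match to TGACNNNGC in capitals. The Psmb5 window is chr14:54617996-54618245 (minus strand), with the match 47 to 39 bases before the start. The Psmd9 window is chr5:123227940-123228189 (plus strand), with the match 31 to 23 bases before the start. The Psmd8 window is chr7:29180674-29180923 (minus strand). For Psmb6, the caspase-like subunit, only the last 30 bases are given, chr11:70525327-70525356 (plus strand), with the match 9 to 1 bases before the start.
Psmb5: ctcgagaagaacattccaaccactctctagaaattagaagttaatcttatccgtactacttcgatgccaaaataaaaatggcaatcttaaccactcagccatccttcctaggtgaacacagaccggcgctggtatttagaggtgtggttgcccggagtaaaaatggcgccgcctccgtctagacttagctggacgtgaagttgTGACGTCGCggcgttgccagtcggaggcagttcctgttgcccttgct
Psmd9: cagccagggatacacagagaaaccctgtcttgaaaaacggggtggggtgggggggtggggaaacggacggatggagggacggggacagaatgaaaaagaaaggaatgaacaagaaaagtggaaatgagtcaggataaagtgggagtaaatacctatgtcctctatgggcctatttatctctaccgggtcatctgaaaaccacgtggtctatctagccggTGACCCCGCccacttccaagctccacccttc
Psmd8: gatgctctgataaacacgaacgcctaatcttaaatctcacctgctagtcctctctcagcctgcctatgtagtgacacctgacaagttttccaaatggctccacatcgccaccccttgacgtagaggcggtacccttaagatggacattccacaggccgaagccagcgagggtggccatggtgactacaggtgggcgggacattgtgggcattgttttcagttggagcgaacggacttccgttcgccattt
Psmb6: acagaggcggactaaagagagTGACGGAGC

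The alpha ring forms the gate of the core and was the group that fell furthest by median with TMM scaling. All 7 tested alpha subunits were lower in K68R (median log2 fold change -0.69, or 1.62-fold), and with offsets 6 were lower and Psma2 was higher (median -0.17). For this and the groups of subunits that follow, 40.5% of all genes tested were lower and 40.8% higher. With offsets these shares were 39.3% and 36.2%. Among genes in the members' range of length and GC content 56.6% were lower and 23% higher with TMM scaling. Psma6 (mm39 chr12:55431007-55465244), an alpha ring subunit, had the largest fall of all members with TMM scaling. It measured 109, 109 and 107 CPM in K68R against 187, 192 and 183 CPM in WT. No K68R library came near the WT range. The change was -0.79 ± 0.03 on the log2 scale (SE), 1.72-fold lower, with an adjusted p of 1.215e-39 in edgeR, and -0.18 with offsets. Psma4 (-0.76), Psma5 (-0.71), Psma1 (-0.69), Psma3 (-0.63) and Psma2 (-0.50), which fill other places of the ring, lay between Psma6 and Psma7.

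Psma7 (chr2:179678160-179684257), the alpha subunit with the smallest fall, read 151, 160.5 and 153 CPM in K68R against 211, 208 and 213 CPM in WT. The genotypes did not overlap, and the log2 fold change was -0.44 ± 0.02 (1.36-fold lower, adjusted p 6.505e-27, edgeR). It hardly moved with offsets (-0.40), so that the member with the smallest fall in the ring became the one with the largest. Psma2 went the other way, from -0.50 to 0.09. The order within the alpha ring therefore differed between both fits.

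Psma8 encodes an alpha subunit of the testis and was close to the floor in these fibroblasts. It had 7, 10 and 6 counts in the K68R libraries and 13, 4 and 10 counts in the WT libraries. Psmb11, the beta subunit of thymic epithelium, had 3, 2 and 3 counts in K68R and 0, 0 and 1 in WT. Both were too low for the test, and no fold is given.

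The 3 catalytic beta subunits, which carry the cutting sites, fell by like amounts with TMM scaling (median -0.55, 1.47-fold), and with offsets only Psmb5 was called, lower by a small amount. Psmb5 (chr14:54851577-54855452), which cuts after hydrophobic residues and is the target of bortezomib, was at 108, 105 and 105 CPM in K68R against 159, 155 and 151 CPM in WT. All 3 K68R libraries were lower than all 3 WT libraries, and the log2 fold change was -0.55 ± 0.03 (adjusted p 1.633e-29, edgeR) and -0.07 with offsets (adjusted p 0.00991, edgeR). Exons of Psmb5 share 12.5% of their bases with the microRNA gene Mir686 on the same strand.

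Psmb6 (chr11:70416116-70418684), which cuts after acidic residues, was at 141, 142 and 137 CPM in K68R against 208, 206 and 199 CPM in WT. Its log2 fold change was -0.55 ± 0.02 (adjusted p 7.202e-32, edgeR), and with offsets it was not called (-0.03, adjusted p 0.213, edgeR). Psmb7 (chr2:38478058-38533964), which cuts after basic residues, was at 167, 170.4 and 158 CPM in K68R against 259, 253 and 248 CPM in WT. The log2 fold change was -0.62 ± 0.02 (adjusted p 9.234e-34, edgeR), and with offsets it was not called (-0.03, adjusted p 0.315, edgeR). In both genes the genotypes stood clear of each other. The inducible subunits that replace these 3 in the immunoproteasome are described further on.

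The 4 beta subunits without an active site were lower with TMM scaling (median -0.59, 1.51-fold), whereas with offsets Psmb4 was lower, Psmb3 higher, and Psmb1 and Psmb2 not called. Psmb4 (chr3:94791635-94794269), a structural beta subunit, was at 180.5, 181 and 169.7 CPM in K68R against 303, 292.5 and 286 CPM in WT. That is a gap wider than the range within either genotype, with a log2 fold change of -0.73 ± 0.02 (1.66-fold lower, adjusted p 8.995e-37, edgeR) and -0.19 with offsets. Psmb3 (chr11:97594260-97604326), the beta subunit with the smallest fall and the shortest of the tested members at 731 exonic bases, was at 121.7, 126.2 and 124.0 CPM in K68R against 163.8, 163.6 and 164.5 CPM in WT. The values did not overlap. Its log2 fold change was -0.40 ± 0.03 (adjusted p 1.09e-23, edgeR), but 0.24 with offsets (adjusted p 4.29e-13, edgeR).

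The 6 ATPases of the base, which form the ring that unfolds substrates, lay close together. All 6 were lower with TMM scaling (median -0.50, 1.41-fold), and with offsets 4 were lower and 2, Psmc1 and Psmc2, not called (median -0.07). Psmc1, Psmc2, Psmc4 and Psmc6 lay between -0.50 and -0.49. With TMM scaling Psmc5 (chr11:106147011-106153938) fell furthest. It was at 135, 133 and 130.0 CPM in K68R against 205, 193 and 188 CPM in WT. The log2 fold change was -0.56 ± 0.03 (1.48-fold lower, adjusted p 4.016e-29, edgeR) and -0.09 with offsets.

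Psmc3 (chr2:90884361-90889783) fell least of the ATPases with TMM scaling. It was at 242, 237 and 234 CPM in K68R against 292, 290.4 and 297.5 CPM in WT. Here too every K68R library was lower than every WT library, with a log2 fold change of -0.31 ± 0.02 (1.24-fold lower, adjusted p 4.104e-21, edgeR) and -0.11 with offsets. With offsets Psmc3 was the lowest of the ATPases and Psmc5 came next, so their order differed between both fits.

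The 3 other subunits of the base had a median of -0.33 with TMM scaling, and with offsets 2 were lower and Psmd4 higher. Psmd1 and Psmd2, the large scaffolds of the base, changed by -0.34 and -0.31 on the log2 scale (edgeR, both called). With 3256 and 3417 exonic bases they are among the longest members, and with offsets they were at -0.11 and -0.30. Psmd4 (chr3:94939999-94949880), a ubiquitin receptor, was at 152, 148 and 142 CPM in K68R against 189.8, 187 and 178 CPM in WT. The lowest WT library was above the highest K68R library. Its log2 fold change was -0.33 ± 0.03 (adjusted p 4.855e-18, edgeR) and turned to 0.10 with offsets (adjusted p 0.000146, edgeR).

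The lid, which sits beside the base, was the only divided group with TMM scaling: of its 8 genes 5 were lower, 2 higher and 1 not called. With offsets 4 were lower and 4 higher. Other groups then also held members called both ways: the alpha ring, the beta subunits without an active site, the other base subunits and the chaperones. Psmd7 (-0.63), Psmd6 (-0.61), Psmd13 (-0.61), Psmd12 (-0.54) and Psmd14 (-0.50) fell with TMM scaling. Psmd14 (chr2:61542038-61630720) is the metalloprotease that removes ubiquitin chains and works as a pair with Psmd7. It was at 109.9, 117 and 109.9 CPM in K68R against 160.2, 159.6 and 156 CPM in WT, with a log2 fold change of -0.50 ± 0.03 (adjusted p 5.822e-27, edgeR) and 0.06 with offsets (adjusted p 0.0349, edgeR). The K68R values of Psmd14 stood well below those of WT.

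With TMM scaling Psmd3 (chr11:98573380-98586804), a scaffold subunit of the lid, was the member that rose most. It was at 171, 164 and 174 CPM in K68R against 125, 124 and 125 CPM in WT. Every K68R library was above every WT library, by 0.44 ± 0.03 on the log2 scale (1.36-fold higher, adjusted p 1.618e-25, edgeR), and the change was 0.40 with offsets. Psmd8 (chr7:28873612-28880098), the subunit whose entry completes the lid, was at 372, 377 and 379 CPM in K68R against 344, 346 and 351 CPM in WT. The 2 ranges did not touch but lay close, with a log2 fold change of 0.12 ± 0.02 (1.08-fold higher, adjusted p 2.703e-07, edgeR). It was not called with upper quartile scaling (0.00, adjusted p 0.907, edgeR), which lowers the median of all genes by 0.11. With offsets it was at 0.50, the highest of all members.

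Psmd11 (chr11:80319441-80364074), the third lid gene that did not fall with the rest, was at 123, 125 and 127 CPM in K68R against 132, 125 and 132 CPM in WT. One WT library lay within the K68R range. The log2 fold change was -0.06 ± 0.03 and missed the threshold (adjusted p 0.05205, edgeR), was called lower without WT replicate 2 (adjusted p 0.001747, edgeR) or without K68R replicate 3 (adjusted p 0.03912, edgeR), with upper quartile scaling, with library totals and with no filter on low counts, and was 0.39 with offsets. Psmd3, Psmd8 and Psmd11 were the 3 highest members in either fit. They were singled out after their values were seen.

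The 3 chaperones that help to assemble the base were lower with TMM scaling (median -0.61), while with offsets Psmd9 was lower, Psmd5 higher and Psmd10 not called. Psmd9 (chr5:123366253-123388189) was at 29.9, 29.9 and 30.3 CPM in K68R against 49.2, 50.4 and 50 CPM in WT. These ranges were far apart, and the log2 fold change was -0.73 ± 0.04 (1.66-fold lower, adjusted p 1.322e-25, edgeR). It was the largest fall of the cap and, with offsets, of all members (-0.54). Psmd10, also known as gankyrin, was at 20.1 ± 0.487 CPM in K68R against 30.7 ± 1.24 CPM in WT, and 3.71% of its exonic bases lie opposite those of Atg4a. Psmd5 changed by -0.37, and by 0.09 with offsets.

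Levels of different genes were compared per length, as TPM, a scale that divides counts by exonic length and sets each library to the same sum. On it all fold changes were shifted upward. The median of the 34 members was -0.27 (log2), against -0.54 with TMM scaling. That of all genes tested was 0.26, against -0.01 with TMM scaling, so the distance between members and all genes was nearly the same. The mean TPM of 31 members was lower in K68R and that of Psmd3, Psmd8 and Psmd11 higher. Of the 16730 genes tested, mean TPM was lower in K68R for 6281 and higher for 10449. In WT the most abundant member was Psmb4 (671 ± 15.2 TPM), followed by Psma2 (524 ± 13.8), Psmb7 (519 ± 8.13), Psmd8 (497 ± 8.53) and Psmb3 (486 ± 5.04). Psma2 and Psmb7, and likewise Psmd8 and Psmb3, differed by less than the sum of their SDs. In K68R the most abundant was Psmd8 (649 ± 7.91 TPM), followed by Psmb4 (487 ± 15.6) and Psma2 (448 ± 9.96).

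At the low end, the chaperones Psmd9 (41.7 ± 0.686 TPM in WT, 30.3 ± 0.336 in K68R) and Psmd10 (45.7 ± 2.01 and 36.1 ± 0.798) were the scarcest of the tested members in both genotypes. Psmd11 came next in WT (94.8 ± 3.34 TPM), whereas in K68R Psma3 did (107 ± 3.27 TPM), followed by Psmd11 (110.0 ± 2.17 TPM). Log2 TPM of the 34 members was nearly in the same order in both genotypes (Pearson r = 0.964, Spearman rho = 0.970, both across genes of the same libraries). The coefficient of variation of TPM across the 14 core subunits was 35.9 ± 0.410% in WT and 37.1 ± 0.375% in K68R. Across the 17 cap subunits without chaperones it was 37.4 ± 0.393% in WT and 46.5 ± 0.501% in K68R. Psmd8, the most abundant of these in both genotypes, was at 497 TPM in WT and 649 TPM in K68R. Psmd3 and Psmd11 were also higher in K68R on this scale, and the others lower. The part of single genes in this spread was not tested.

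The balance of cap to core was higher in each K68R library than in any WT library, with no test run over the chosen members. Summed over members, the 20S core was at 4346, 4361 and 4244 TPM in K68R and 5469, 5431 and 5382 TPM in WT, a 1.26-fold lower level. The 19S cap was at 4771, 4776 and 4711 TPM in K68R and 5077, 5046 and 5080 TPM in WT, 1.07-fold lower. Both folds are on the TPM scale, on which the median log2 ratio of all genes tested was 0.26. The ratio of cap to core was 1.10 ± 0.00804 in K68R and 0.934 ± 0.00881 in WT, with no overlap between libraries. The 3 lid genes Psmd3, Psmd8 and Psmd11 held 20.3 ± 0.456% of the cap's TPM in K68R and 14.2 ± 0.197% in WT. Without these 3 the ratio was 0.877 ± 0.00174 in K68R and 0.802 ± 0.00572 in WT, and as a ratio of medians over all members it was 0.744 ± 0.0110 and 0.686 ± 0.00889. The core genes are also the shorter ones (median 1080 exonic bases, against 1617.5 in the cap). Median log2 fold changes of core and cap were -0.61 and -0.49 with TMM scaling, but closer together with offsets (-0.09 and -0.06). The ratio itself was not computed with offsets, and the part of length in it was not tested.

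**Figure D3:**
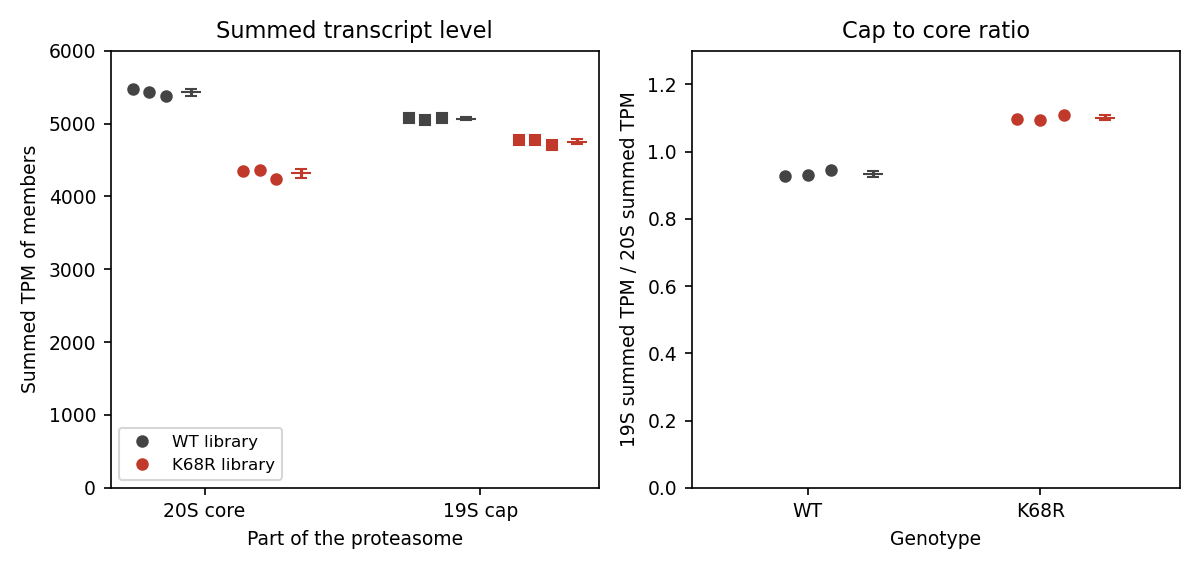
Left, summed TPM of the 20S core and 19S cap members in each library, with the mean and SD (n = 3) beside the points; right, the ratio of both sums. On the TPM scale core and cap were both lower in K68R, and the ratio was 1.10 in K68R and 0.934 in WT.

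The genes that build, open and regulate the proteasome were described from lists of 45 genes, of which 44 could be tested and Paaf1 was not matched in the table. With TMM scaling 14 were higher, 25 lower and 5 not called, and with offsets 19 were higher and 19 lower, against backgrounds of 40.8% higher and 40.5% lower, and of 36.2% and 39.3% with offsets. Of the 6 genes listed for 20S assembly 5 were lower (median -0.90). Psmg1, which pairs with Psmg2 to seed the alpha ring, was at 21.6, 21.5 and 18.9 CPM in K68R against 47.1, 48.3 and 47.0 CPM in WT (-1.20 ± 0.05, adjusted p 2.665e-34, edgeR), and at -0.66 with offsets. Psmg2 changed by -0.95, and by -0.40 with offsets. Pomp, which guides the beta ring, changed by -0.54 but by 0.11 with offsets. The exception was Akirin2, which brings proteasomes into the nucleus (-0.01, adjusted p 0.836, edgeR), and which was higher with offsets (0.46).

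Of the activators and the inhibitor, 4 of 5 were lower (median -0.39), where 40.5% of all genes tested were. Psme1 and Psme2, which form the interferon induced PA28 activator, changed by -0.58 and -0.83, and Psme3, the nuclear PA28 gamma, by -0.39. With offsets these were -0.14, -0.30 and -0.40. Psme4, the activator PA200, was higher in both fits (0.16 and 0.18). The inhibitor Psmf1 was lower with TMM scaling (-0.18) and not called with offsets (-0.10, adjusted p 0.0501, edgeR).

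The immunoproteasome subunits, which replace the 3 catalytic subunits under interferon, were all lower (median -1.57, and -1.17 with offsets), where 40.5% of all genes tested were. Psmb8 was at 1.16, 1.47 and 0.810 CPM in K68R against 8.03, 8.73 and 8.14 CPM in WT (-2.85 ± 0.15, 7.19-fold lower, adjusted p 4.081e-28, edgeR). Psmb10 was at 14.0 ± 0.791 CPM in K68R against 27.7 ± 1.87 CPM in WT (-0.99). Psmb9 was at 0.312 ± 0.0672 and 0.926 ± 0.235 CPM, near the floor of 3 counts (-1.57 ± 0.35, adjusted p 4.103e-05, edgeR). The log2 fold change of each of the 3 was lower than that of any constitutive member in both fits.

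Of the cap subunits and partners outside the naming pattern, 6 of 7 were lower (median -0.59, and -0.21 with offsets), where 40.5% of all genes tested were. Uchl5, a deubiquitinase of the cap, changed by -0.86 and by -0.36 with offsets, and Txnl1, a thioredoxin-like protein bound to the lid, by -0.63 and -0.21. Sem1, the smallest lid subunit, changed by -0.63 but by 0.07 with offsets. Adrm1, the ubiquitin receptor to which Uchl5 binds, was higher in both fits (0.22 and 0.50).

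A list of 9 genes held NFE2L1, its relatives Nfe2l2 and Nfe2l3, and genes that control them. Of these 5 were higher (40.8% of all genes tested were), 2 lower, Ngly1 and Nfe2l2, and 2 not called (median 0.40), and with offsets 5 were higher and 4 not called (median 0.27). Nfe2l1 was at 271, 268 and 258 CPM in K68R against 76.0, 74.7 and 78.1 CPM in WT. This was 3.48-fold higher (1.80 ± 0.03 on the log2 scale, adjusted p 1.954e-61, edgeR), with every K68R library above every WT library, and 0.57 with offsets. Syvn1, a ubiquitin ligase of the endoplasmic reticulum that marks NFE2L1 for turnover, was at 66.8, 67.9 and 71.8 CPM in K68R against 14.2, 14.3 and 15.8 CPM in WT (2.22 ± 0.05, adjusted p 5.331e-51, edgeR), and at 1.12 with offsets. Sel1l, the partner of Syvn1, changed by 0.40 and by 0.27 with offsets. Ddi2, the protease that cuts NFE2L1 into its active form, changed by 0.47 and Ngly1, which removes its sugars, by -0.53.

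Among 14 ubiquitin and shuttle genes 7 were higher, 5 lower and 2 not called (median 0.08), near the 40.8% higher and 40.5% lower of all genes tested. With offsets 9 were higher and 4 lower, against 36.2% and 39.3% of all genes in that fit. Ubqln2, a shuttle that brings ubiquitinated proteins to the cap, was at 95.3, 93.9 and 95.9 CPM in K68R against 32.96, 35.3 and 33.4 CPM in WT (1.49 ± 0.04, adjusted p 2.728e-47, edgeR), and its change was 1.56 with offsets. Ubqln4, of the same family, changed by 1.19, but by 0.24 with offsets.

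**Figure D4:**
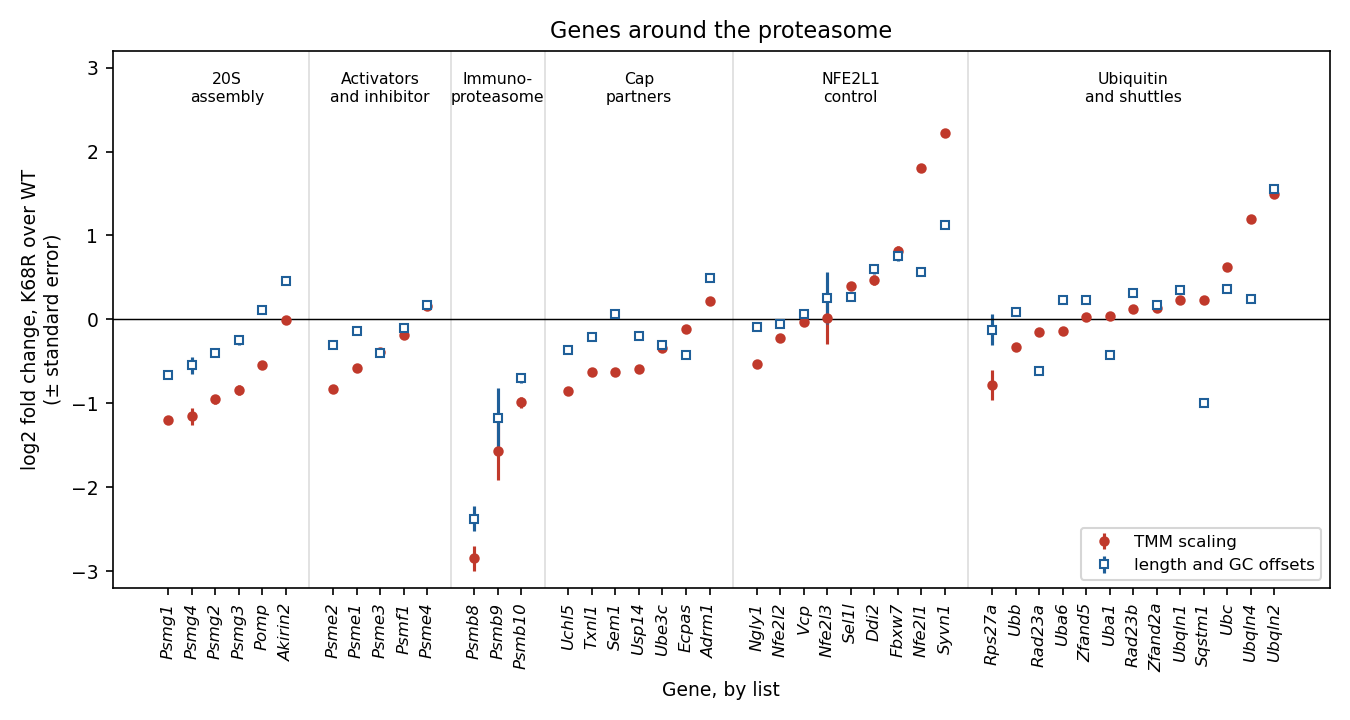
Log2 fold change of K68R over WT (with standard error) for tested genes around the proteasome, by list, under TMM scaling (filled) and with length and GC offsets (open). The immunoproteasome genes lie below 0 in both fits, and Nfe2l1 (1.80 and 0.57), Syvn1 (2.22 and 1.12) and Ubqln2 (1.49 and 1.56) above it. The 20S assembly genes are below 0 with TMM scaling, Akirin2 barely so (-0.01, not called), while Pomp and Akirin2 are above 0 with offsets.

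The 36 members lie on 16 chromosomes in mm39, with 6 on chromosome 11, 5 on chromosome 2 and 4 on chromosome 7. Several start head to head with another gene. Psmd13 starts 85 bases from Sirt3, the mitochondrial deacetylase that acts on SOD2. Sirt3 was at 6.62, 5.99 and 6.58 CPM in K68R against 8.13, 9.08 and 7.01 CPM in WT. All K68R libraries were lower, with a log2 fold change of -0.34 ± 0.10 (adjusted p 0.001733, edgeR), but with offsets it was not called (0.17, adjusted p 0.107, edgeR). Psmc2 starts 90 bases from Dnajc2 (-0.61, and -0.12 with offsets), Psmc5 101 bases from Ftsj3 (-0.45 and -0.32) and Psma2 205 bases from Mrpl32 (-0.71 and -0.07). All 3 neighbours were lower with TMM scaling, but with offsets Mrpl32 was not called (adjusted p 0.19, edgeR), and Psma2 (0.09) and Psmc2 (0.04, not called) turned in sign. Psma7 starts 19 bases from Ss18l1, which was higher (0.87, and 0.81 with offsets) while Psma7 was lower in both fits.

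Reads were counted without strand and reads with several matches were left out, so 3 members with overlapping exons and those with near copies are less certain. Psma4 shares 9.11% of its exonic bases with AY074887 on the opposite strand. The copy Psma5-ps was at 5.74 ± 0.146 CPM in K68R against 10.1 ± 0.370 CPM in WT, against 73.8 ± 2.13 and 121 ± 4.67 CPM for Psma5, so that both were lower with TMM scaling (-0.82 and -0.71).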

How the data were processed

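Poly(A) RNA of 6 libraries was sequenced from a stranded kit, per the labels' protocols. The tools named are HISAT2 2.2.1 and featureCounts 2.0.6, with build mm39, per the submitters' processing notes. Values are the authors' unnormalized counts, by gene and library; per the file headers, read pairs were counted over RefSeq exons with no strand option, and multi-mapped reads were not counted. How reads were trimmed is not stated in the labels or headers used. The titles name the samples biological replicates but do not say whether they were separate embryos or cultures, so the p-values reflect only the spread among these libraries, and it may be technical. Libraries of 1 genotype differed beyond sampling noise (chi-square per gene 1.85 to 2.29) and were used as separate samples.

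All genes were fitted together in R 4.3.3 with edgeR 4.0.16 (default filterByExpr, TMM, robust quasi-likelihood test, genotype only), with calls at p under 0.05 after Benjamini-Hochberg adjustment. CPM used TMM-scaled totals and TPM the exonic lengths of the table. The fit was tested on simulated data in which few genes were changed and no trend with length or GC was set. That test does not cover scaling where most genes differ, or the trends seen here. Floors of 3 counts cover counting error only. Offsets came from a smooth surface over log2 exonic length and GC content, fitted per library with mgcv 1.9.3. GC content came from GENCODE M21 transcripts (GRCm38) joined by symbol, for 93.8% of genes tested and 34 of 34 tested members. Promoters were RefSeq windows of GRCm38.p6, and no coordinates were moved between builds.

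Alternatives were DESeq2 1.42.0 and its size factors, limma-voom (limma 3.58.1), upper quartile or no scaling, no filter or 1 CPM in 3 libraries, a bound of 1.5-fold, an adjusted p under 0.01, the replicate block, the offsets, short genes only, and leaving out each library. By rule, library values were given for the members with the highest and lowest fold change in each family and for Psmb5, Psmb6, Psmb7, Psmd4, Psmd14, Psma8 and Psmb11, then for Sod2, Nfe2l1 and up to 3 called genes with the smallest p in each pathway list, of which some are given as means or fold changes only. Psmd8, Psmd11, Akirin2, Psme4, Psmf1, Adrm1, Ddi2, Ngly1, Nfe2l2, the marker genes named and the neighbours and overlapping genes were added after their values were seen. One gene that the rule names is not reported here and not drawn, but stays in the counts. The members and lists were chosen with earlier results of these data known.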

Additional observations from a re-analysis of the deposited data

How the results depend on the processing

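With DESeq2 size factors, DESeq2, limma-voom, either filter on low counts, an adjusted p under 0.01 and each library left out, the number of core and cap genes called in each direction stayed within 1.5 times. Without 1 library at a time the core median ran from -0.64 to -0.59 and the cap median from -0.52 to -0.47. Upper quartile scaling, which moves the median of all genes by -0.11, gave medians of -0.73 (core) and -0.61 (cap) with 1 cap gene higher, and library totals alone gave a core median of -0.66. Against a bound of 1.5-fold, 6 core and 2 cap genes were lower and 0 cap genes higher, 5 pathway genes higher and 11 lower, and of all genes 4365 higher and 2490 lower. Among genes under 4000 bases and 50% GC alone, 1349 were higher and 1366 lower. There 8 of 9 core genes (median -0.19) and 8 of 11 cap genes (median -0.0625) were lower, and 7 pathway genes were higher and 5 lower. With length and GC offsets 2 core genes were higher and 8 lower (median -0.0869), and 6 cap genes higher and 11 lower (median -0.0595). Adding the replicate block to the offsets gave the same counts, with medians of -0.0870 and -0.0589. The log2 fold changes that turned with offsets, without and with the block, were those of Psmd5 (0.0914 and 0.0912), Psmc2 (0.0352 and 0.0365), Psmd4 (0.102 and 0.104), Psmd14 (0.0595 and 0.0584), Psmd11 (0.392 and 0.393), Psma2 (0.0865 and 0.0867), Psmb1 (0.0129 and 0.0135), Psmb3 (0.241 and 0.240), Pomp (0.113 in both) and Sem1 (0.0662 and 0.0696). Among short genes alone those of Psmd5 (0.0630), Psmd1 (0.0905), Psmd11 (0.378) and Psmb3 (0.0312) turned. The cap to core ratio was 0.744 in K68R and 0.686 in WT as a ratio of medians, and 0.877 and 0.802 without Psmd3, Psmd8 and Psmd11, an alternative chosen after seeing the data. Of 979 values of 53 named genes over the alternatives, 907 kept direction and call, 42 lost the call, 6 gained one and 24 turned. Apart from the smaller sets of genes tested, the cause of these shifts was not tested.

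Libraries with the same replicate number deviated from their group means with correlations of 0.0136, -0.00108 and 0.0492 over 10744 genes, so the numbers were not taken to pair samples. With the replicate block 6804 genes were higher and 6763 lower, 14 core genes and 18 cap genes were lower (medians -0.61 and -0.49) and 2 cap genes higher, and Psmd11 was called (adjusted p 0.04575, edgeR). Only the libraries numbered 3 each correlated best with the library of the same number.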
